A study of Homo sapiens with 10 samples.

Results

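The 10 genes described here are 3 members of the ZMAT family (*ZMAT3*, *ZMAT2* and *ZMAT5*) and 7 genes for proteins that bind AU-rich elements (*ELAVL1*, *ZFP36*, *ZFP36L1*, *ZFP36L2*, *KHSRP*, *TIA1* and *TIAL1*). They were chosen by name and matched by gene symbol, and all 10 had values in both deposited tables, of 13029 genes in the first and 17642 in the second. The study asked which RNAs depend on ZMAT3 and on p53 in HCT116, a human colorectal cancer cell line. No drug treatment is named for the sequenced cultures in the sources used here. In the first experiment, polyadenylated RNA was sequenced from 3 cultures of *ZMAT3*-WT cells and 3 cultures of a *ZMAT3*-KO clone. Clones of both genotypes were grown from single cells after Cas9 and a pair of guide RNAs aimed at the p53 response element of *ZMAT3*. The study names a single *ZMAT3*-KO clone and does not state how many *ZMAT3*-WT clones were sequenced. The effect of the genotype and a difference between clones thus cannot be told apart. The abbreviations EV and unt in the labels of these libraries are not explained in the sources used here. In the second experiment, 2 cultures were transfected with a control siRNA (siCTRL) and 2 with a pool of siRNAs against p53 (sip53) for 72 h.

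AU-rich elements are stretches in the 3′ untranslated region (3′ UTR) of many short-lived messengers, built around the pentamer ATTTA and, in the tightest sites, the nonamer TTATTTATT. The ZFP36 proteins bind these elements and recruit the CCR4-NOT deadenylase, KHSRP brings in the decay machinery, ELAVL1 (HuR) generally protects the messenger, and TIA1 and TIAL1 hold back its translation and also act in splicing. ZMAT3 is a zinc finger protein encoded by a p53 target gene, and it binds RNA, including AU-rich sequence. ZMAT2 is a protein of the spliceosome, and ZMAT5 belongs to the U11/U12 particle of the minor spliceosome.

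The guides are shown because the first comparison rests on them. Each has 1 exact match in hg38, on the minus strand of chromosome 3 and so on the sense strand of *ZMAT3*; the capitals mark the PAM. According to GENCODE release 44 both sites fall within the first intron of the canonical isoform, and for the 3′ guide this is the second intron in 1 of the 4 coding transcripts.
5′ guide, chr3:179071488-179071508: ccatctgccctccacgtgacaGGG
3′ guide, chr3:179070034-179070053: cattatgaattattattattAGG
Read along the gene, the 5′ guide begins 301 bases and the 3′ guide 1756 bases after the start of that transcript. From the outer end of one guide to the outer end of the other, the genome holds 1475 bases with 2 matches to the p53 consensus half-site, a 10-base motif that reads the same on both strands. The 2 matches touch, with 0 bases between them, and are shown in capitals on the strand of the gene.
p53 half-site pair, chr3:179070178-179070217: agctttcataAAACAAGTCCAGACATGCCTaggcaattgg
The pair lies 135 bases from the 3′ guide and 1281 bases from the 5′ guide. Of 134279 windows of 1475 bases on chromosome 3, 0.203% held a pair of half-sites with at most 13 bases between them. The region between the guides had been chosen for its p53 response element, so this rate does not measure how unusual the pair is. In the clone only a short stretch near one of the guides was lost, as the study describes it, and its borders were not used here.

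The members that carry the nonamer in their own 3′ UTR are the 3 ZFP36 genes and *ELAVL1*, with 1 copy each, shown in capitals with 10 bases on either side (hg38, on the strand of the gene).
ZFP36, chr19:39409196-39409224 (plus strand): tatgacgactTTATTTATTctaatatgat
ZFP36L1, chr14:68788077-68788105 (minus strand): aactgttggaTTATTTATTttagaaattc
ZFP36L2, chr2:43223448-43223476 (minus strand): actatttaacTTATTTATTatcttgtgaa
ELAVL1, chr19:7961828-7961856 (minus strand): atttatgtatTTATTTATTgaagtgtgaa
The search covered the sense strand only, since the motif is read in RNA, and each nonamer also contains a pentamer. Of the 19206 canonical 3′ UTRs in GENCODE release 44, 8.5% hold the nonamer and 67.79% the pentamer. The 3′ UTR of *ZMAT3*, with 7794 bases the longest among the members, holds 14 pentamers and 0 nonamers. *ELAVL1* and *TIA1* hold 13 pentamers each, *ZFP36L1* holds 8, *ZFP36*, *ZFP36L2* and *TIAL1* hold 5 each, *ZMAT2* and *KHSRP* hold 1 each, and *ZMAT5* holds 0. Per length of sequence, *ZFP36* is the densest with 5 pentamers in 708 bases, followed by *ZFP36L1* with 8 in 1871. A match describes the sequence only and does not show that a protein binds there.

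The first table holds log2 CPM (in its usual sense the log2 of each gene's share of the library's counts). The second holds values read as FPKM (fragments per length of transcript and depth of library). The 6 *ZMAT3* libraries share one distribution of values, so their log2 CPM are adjusted and are not exact shares of each library. The siRNA libraries carry no counts, and the depth of all 10 libraries is unknown. All 5 epithelial markers (EPCAM, CDH1, KRT8, KRT18 and KRT19) were listed in both tables, at 6.28 to 11.7 log2 CPM and 36.9 to 1757 FPKM. Of 4 leukocyte markers 0 were listed in the first table and 1 in the second (*LYZ*, 0.74 to 2.86 FPKM), and of 3 endothelial markers 0 and 1 (*VWF*, 0.08 to 0.16 FPKM). Of 3 fibroblast markers 1 was listed in both, *COL1A1*, at 3.20 to 3.45 log2 CPM and 4.08 to 7.06 FPKM. *KRT19* was 9.54 to 9.64 log2 CPM in *ZMAT3*-WT and 7.79 to 7.85 log2 CPM in *ZMAT3*-KO libraries, and *KRT8* and *KRT18* were also lower in every *ZMAT3*-KO library than in any *ZMAT3*-WT library. *EPCAM* (8.51 to 8.56 against 8.54 to 8.58 log2 CPM) and *CDH1* (6.28 to 6.36 against 6.32 to 6.41 log2 CPM) overlapped between the genotypes. The part of the keratins in the results was not tested. In the siRNA libraries siCTRL replicate 1 and sip53 replicate 2 deviated from their group means in the same direction (r = 0.62 across 14274 genes, which are not independent), and several members follow that split. *CDKN1A*, a direct p53 target that encodes p21, was listed at 525.01 and 481.06 FPKM with siCTRL and at 34.22 and 37.67 FPKM with sip53. It also differed in the other experiment, at 7.61 to 7.66 log2 CPM in *ZMAT3*-WT and 7.06 to 7.15 log2 CPM in *ZMAT3*-KO libraries. Groups were compared with limma (two-sided, fitted over all genes of a table, Benjamini-Hochberg adjustment). The threshold for a call was 0.05, set on the adjusted p for the *ZMAT3* libraries and on the unadjusted p for the siRNA libraries.

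In *ZMAT3*-KO cells 3 of the 10 members were higher (*ZFP36L1*, *TIA1* and *TIAL1*) and 4 were lower (*ZMAT3*, *ZFP36*, *ZFP36L2* and *ZMAT2*). Over all 13029 genes 28.7% were called higher and 30.1% lower, so 7 calls among 10 genes are not far from the background of this comparison. With a change of at least 1.5-fold also required, *ZFP36L1* and *TIA1* were higher and *ZMAT3* and *ZFP36* lower, where 4.6% of all genes were higher and 4.37% lower. The median size of the log2 fold change, whatever its direction, was 0.31 for the members and 0.17 for all genes. The values of the 2 groups did not overlap for 8 of the 10 members, as for 64.2% of all genes. The rule that chose the members used none of these values, but the genes had been picked with results of these data known.

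*ZMAT3* (chromosome 3, 178960121 to 179072215, minus strand) is the targeted gene. Its level was 5.00, 5.20 and 5.26 log2 CPM in the *ZMAT3*-WT libraries and 2.25, 2.34 and 2.20 log2 CPM in the *ZMAT3*-KO libraries. The KO libraries all lay far below the WT libraries, as their label has it, but the messenger was still detected in each of them. With limma this was a log2 fold change of -2.89 ± 0.070 (SE, adjusted p = 3.76e-12), which left 0.135 of the WT level. Of all 13029 genes, 38 (0.292%), *ZMAT3* included, fell at least as far.

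*ZMAT2* (chromosome 5, 140698680 to 140706686, plus strand) was 6.55, 6.56 and 6.50 log2 CPM in *ZMAT3*-WT and 6.35, 6.30 and 6.37 log2 CPM in *ZMAT3*-KO libraries. The groups did not overlap, and the decrease was small, to 0.871 of the WT level. limma gave a log2 fold change of -0.20 ± 0.033 (SE, adjusted p = 0.000199), and 21.3% of all genes fell at least as far. *ZMAT5* (chromosome 22, 29730956 to 29767011, minus strand) was 3.23, 3.17 and 3.13 log2 CPM in *ZMAT3*-WT and 3.14, 3.09 and 3.20 log2 CPM in *ZMAT3*-KO libraries. These groups overlapped, and the log2 fold change of -0.03 was not called (95% interval -0.17 to 0.10, limma adjusted p = 0.664). Of the 3 ZMAT genes, 2 were thus called, both lower, and the change of *ZMAT3* was many times that of *ZMAT2*.

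**Figure D1:**
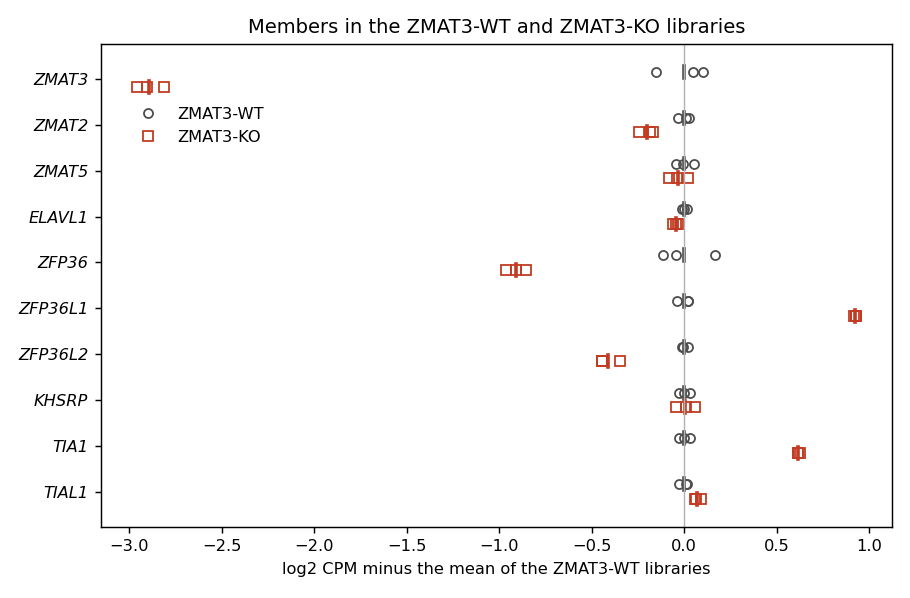
Level of each member in the 3 *ZMAT3*-WT (circles) and 3 *ZMAT3*-KO libraries (squares) as log2 CPM minus the mean of the *ZMAT3*-WT libraries, with short bars at the group means. *ZMAT3*, *ZFP36* and *ZFP36L2* lie to the left and *ZFP36L1* and *TIA1* to the right of their WT values, while *ZMAT5* and *KHSRP* overlap between the groups.

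The 3 genes of the ZFP36 family did not move together. *ZFP36* (chromosome 19, 39406847 to 39409412, plus strand), which encodes tristetraprolin, was 6.02, 5.74 and 5.81 log2 CPM in *ZMAT3*-WT and 4.94, 4.89 and 5.00 log2 CPM in *ZMAT3*-KO libraries. The lowest WT library stood well above the highest KO library. On the log2 scale the change was -0.91 ± 0.061 (SE, limma, adjusted p = 7.12e-08), a 1.88-fold decrease, and 1.97% of all genes fell at least as far.

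*ZFP36L1* (chromosome 14, 68787660 to 68796253, minus strand) was 7.19, 7.25 and 7.25 log2 CPM in *ZMAT3*-WT and 8.14, 8.16 and 8.16 log2 CPM in *ZMAT3*-KO libraries. It moved the other way by about as much as *ZFP36* fell, and the spread between replicates was small beside the change. The increase was 0.93 ± 0.027 on the log2 scale (SE, limma, adjusted p = 2.64e-11), a 1.90-fold increase, and 1.86% of all genes rose at least as far. Over all alternative settings, single libraries left out included, it stayed between 0.91 and 0.94.

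*ZFP36L2* (chromosome 2, 43222402 to 43226606, minus strand) was 6.12, 6.12 and 6.15 log2 CPM in *ZMAT3*-WT and 5.68, 5.78 and 5.68 log2 CPM in *ZMAT3*-KO libraries. It fell with *ZFP36*, but by less, and its groups did not overlap. From limma, the log2 fold change was -0.41 ± 0.036 (SE, adjusted p = 9.11e-07), a 1.33-fold decrease, which 7.98% of all genes matched or passed.

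*KHSRP* (chromosome 19, 6413102 to 6424811, minus strand), the other decay factor among the members, was 9.10, 9.04 and 9.07 log2 CPM in *ZMAT3*-WT and 9.08, 9.13 and 9.02 log2 CPM in *ZMAT3*-KO libraries. The groups overlapped throughout. Here limma gave 0.01 on the log2 scale, with a 95% interval of -0.06 to 0.07 (adjusted p = 0.870) that leaves out changes as large as those of the ZFP36 genes. *KHSRP* hosts *MIR3940* and has a pseudogene, *KHSRPP1*, which was listed at 0.70 to 0.79 FPKM in the siRNA libraries.

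*ELAVL1* (chromosome 19, 7958573 to 8005659, minus strand), the stabilising factor, was 7.85, 7.84 and 7.87 log2 CPM in *ZMAT3*-WT and 7.82, 7.81 and 7.79 log2 CPM in *ZMAT3*-KO libraries. All KO libraries were below all WT libraries, yet the difference was slight and was not called. The log2 fold change was -0.05 (95% interval -0.10 to 0.01, limma adjusted p = 0.137).

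The translational repressors *TIA1* and *TIAL1*, a pair of closely related genes, differed in size of change. *TIA1* (chromosome 2, 70209444 to 70248660, minus strand) was 5.03, 5.06 and 5.09 log2 CPM in *ZMAT3*-WT and 5.67, 5.68 and 5.67 log2 CPM in *ZMAT3*-KO libraries. The KO libraries were nearly identical and all above the WT libraries. The rise was 0.62 ± 0.035 on the log2 scale (SE, limma, adjusted p = 1.39e-08), or 1.53-fold, and 4.28% of all genes rose at least as far. An exon of *TIA1* overlaps *C2orf42* on the same strand, and reads of the shared stretch could have been given to either gene; the log2 fold change of *C2orf42* was 0.17 (limma adjusted p = 0.0601).

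*TIAL1* (chromosome 10, 119571802 to 119597029, minus strand) was 7.23, 7.27 and 7.27 log2 CPM in *ZMAT3*-WT and 7.32, 7.32 and 7.34 log2 CPM in *ZMAT3*-KO libraries. The groups did not overlap, but the gap between them was about as wide as the spread of the WT libraries. The change, 0.07 ± 0.027 on the log2 scale (SE, limma), just passed with an adjusted p of 0.0425. This call was lost in 6 of 11 alternative settings: without a variance trend, and without any single library other than *ZMAT3*-KO replicate 2. Over these settings the adjusted p ranged from 0.0326 to 0.139.

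**Figure D2:**
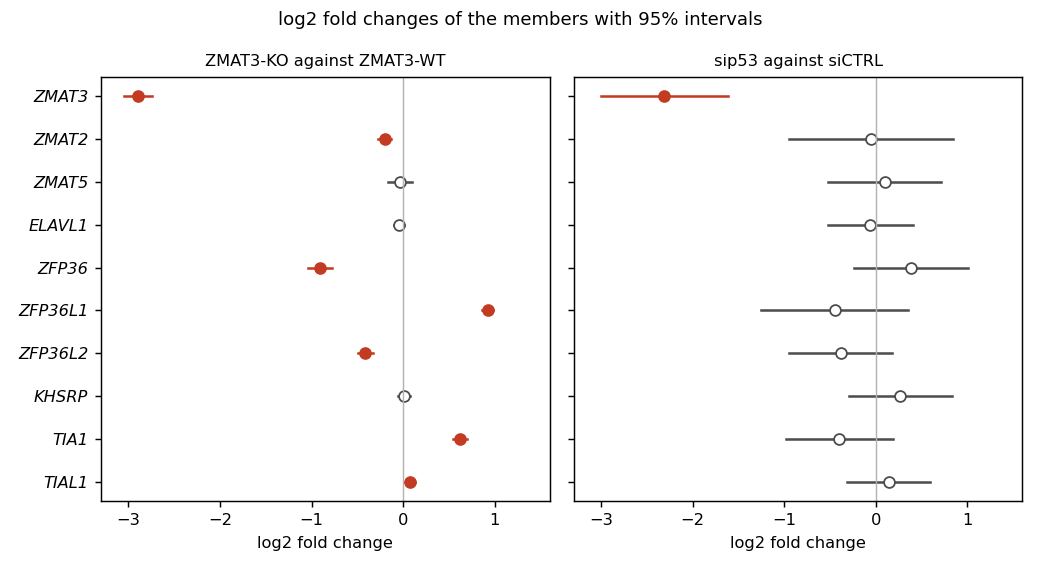
log2 fold change of each member with its 95% interval from limma, for *ZMAT3*-KO against *ZMAT3*-WT (left) and sip53 against siCTRL (right, on the log2(FPKM + 0.1) scale). Filled points were called (adjusted p of 0.05 on the left, unadjusted p of 0.05 on the right): 7 members on the left and *ZMAT3* alone on the right, where the intervals are several times wider.

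Read as FPKM, which is scaled to transcript length, the siRNA values also give an order of the members' levels. The unit was inferred from the values (slope of -0.807 on log2 length), so the order and the ratios between genes are approximate. With siCTRL, *KHSRP* was the most abundant at 181 ± 37.4 FPKM (SD, n = 2), followed by *ZMAT2* at 105 ± 28.6, *ZFP36L1* at 86.8 ± 31.6 and *ELAVL1* at 81.5 ± 6.24 FPKM. *TIAL1* came next at 46.5 ± 3.69 FPKM. The lower levels were those of *ZMAT5* at 17.3 ± 2.97, *TIA1* at 16.8 ± 3.82, *ZFP36* at 15.97 ± 3.15, *ZMAT3* at 12.8 ± 1.15 and *ZFP36L2* at 7.45 ± 0.877 FPKM. The highest was 24.3 times the lowest. Of the 9 steps in this order, 4 are between genes whose siCTRL values overlap, namely *ZMAT2* with *ZFP36L1*, *ZFP36L1* with *ELAVL1*, *ZMAT5* with *TIA1* and *TIA1* with *ZFP36*. *ZMAT3* thus belonged to the scarcer messengers of the set already in control cells.

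**Figure D3:**
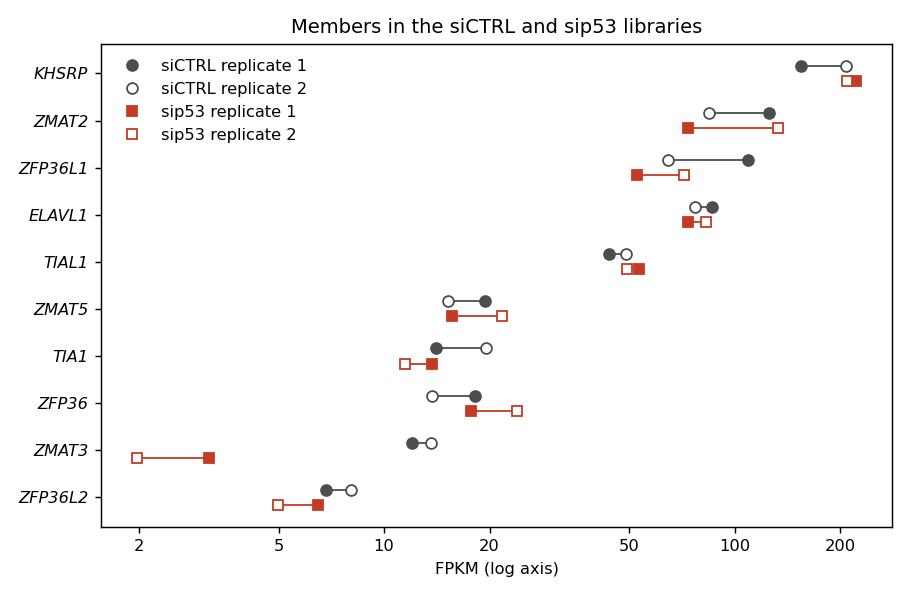
FPKM of each member on a log axis in the siCTRL (circles) and sip53 libraries (squares), with replicate 1 filled and replicate 2 open, ordered by the siCTRL mean. The sip53 values of *ZMAT3* lie far below its siCTRL values, while those of *ZMAT2*, *ZMAT5* and *ELAVL1* overlap.

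Knockdown of p53 left 1 member called lower (*ZMAT3*) and 0 called higher by limma, against 9.28% lower and 5.86% higher among all 14274 genes tested. After adjustment, 0 members were called, as 0.273% of all genes were. The groups did not overlap for 5 members (*ZMAT3*, *ZFP36L2*, *KHSRP*, *TIA1* and *TIAL1*), against 46.4% of all genes. The median size of the log2 fold change was 0.32 for the members and 0.28 for all genes. All fold changes of this experiment are on the log2(FPKM + 0.1) scale, and the median gene was 0.076 lower with sip53 on that scale. Exons of *ZMAT5*, *ELAVL1* and *ZFP36L2* overlap genes on the opposite strand (*CABP7* in the case of *ZMAT5*), and whether the siRNA libraries were counted by strand is not given in the sources used here.

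*ZMAT3* was listed at 12 and 13.62 FPKM with siCTRL and at 3.16 and 1.97 FPKM with sip53. Both sip53 values were far below both siCTRL values. By limma, *ZMAT3* changed by -2.31 ± 0.276 (SE) on the log2 scale (unadjusted p = 0.000282, adjusted p = 0.0670), a 4.96-fold decrease, and 0.434% of the genes tested fell at least as far. Over the alternative settings the adjusted p of *ZMAT3* ran from 0.0271 to 0.206, and its log2 fold change from -2.64 to -1.97.

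*ZMAT2* was listed at 125.06 and 84.65 FPKM with siCTRL and at 73.67 and 133.36 FPKM with sip53. Its replicates differed by more than its groups, and the highest values were those of siCTRL replicate 1 and sip53 replicate 2. The log2 fold change of -0.05 had a 95% interval of -0.95 to 0.84. *ZMAT5* was listed at 19.42 and 15.22 FPKM with siCTRL and at 15.60 and 21.66 FPKM with sip53, with the same replicates high. For *ZMAT5* limma gave 0.10 (95% interval -0.52 to 0.71).

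*ZFP36* was listed at 18.19 and 13.74 FPKM with siCTRL and at 17.68 and 24.0 FPKM with sip53. The groups overlapped, and the log2 fold change of 0.38 was not called (95% interval -0.24 to 1.00, limma unadjusted p = 0.181). *ZFP36L1* was listed at 109.15 and 64.43 FPKM with siCTRL and at 52.58 and 71.72 FPKM with sip53. Its siCTRL replicate 1 stood apart from the other libraries. A change of -0.45 on the log2 scale was not called (95% interval -1.25 to 0.35, limma unadjusted p = 0.213). The value was -0.07 without siCTRL replicate 1 and -0.83 without siCTRL replicate 2.

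*ZFP36L2* was listed at 6.83 and 8.07 FPKM with siCTRL and at 6.46 and 4.97 FPKM with sip53, so that both sip53 values were the lower ones. Their log2 fold change was -0.38 (95% interval -0.95 to 0.18, limma unadjusted p = 0.143). *TIA1* was listed at 14.08 and 19.48 FPKM with siCTRL and at 13.69 and 11.48 FPKM with sip53, again with both sip53 values lower. For *TIA1* the change was -0.40 (95% interval -0.99 to 0.19, limma unadjusted p = 0.144). Neither gene passed the threshold, and these intervals include both no change and a change of the size seen for *ZFP36L2* in *ZMAT3*-KO cells.

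*KHSRP* was listed at 154.58 and 207.52 FPKM with siCTRL and at 222.74 and 208.89 FPKM with sip53 (log2 fold change 0.27, 95% interval -0.29 to 0.83). *TIAL1* was listed at 43.93 and 49.15 FPKM with siCTRL and at 53.30 and 49.19 FPKM with sip53 (log2 fold change 0.14, 95% interval -0.31 to 0.59). For both, the sip53 values were just above the siCTRL values and the difference was not called. *ELAVL1* was listed at 85.94 and 77.11 FPKM with siCTRL and at 73.46 and 82.91 FPKM with sip53, with overlapping groups. Its log2 fold change was -0.06 (95% interval -0.53 to 0.40).

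Set side by side, the 2 experiments, which share no library, gave 6 members the same sign (*ZMAT3*, *ZMAT2*, *ELAVL1*, *ZFP36L2*, *KHSRP* and *TIAL1*) and 4 opposite signs (*ZMAT5*, *ZFP36*, *ZFP36L1* and *TIA1*). The share of all genes with the same sign in both is not given here, so the counts describe these members only. The sign itself turned in some alternative settings for *KHSRP* in *ZMAT3*-KO cells and for *ZMAT2*, *ZMAT5* and *ELAVL1* with sip53. For *ZFP36L2* the log2 fold change was -0.41 in *ZMAT3*-KO cells and -0.38 with sip53. The log2 fold change of *ZFP36* was -0.91 in *ZMAT3*-KO cells and 0.38 with sip53, that of *ZFP36L1* 0.93 and -0.45, and that of *TIA1* 0.62 and -0.40. Leaving out single siRNA libraries, the sip53 value of *ZFP36* ran from 0.16 (without sip53 replicate 2) to 0.60 (without sip53 replicate 1). That of *ZFP36L1* ran from -0.83 to -0.07, and that of *TIA1* from -0.63 (without siCTRL replicate 1) to -0.17 (without siCTRL replicate 2). The difference between the experiments was not tested, since the tables were normalised separately, and the sip53 values of these 4 genes did not pass the threshold on their own.

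The difference between 2 genes within a library, and its change between groups, was compared for 5 pairs of related members per experiment, which were chosen after their values had been seen. A shift common to all genes of a library cancels in such a difference, but the adjustment that gave the *ZMAT3* libraries one distribution does not. In the *ZMAT3* experiment *ZFP36L1* exceeded *ZFP36* by 1.17, 1.51 and 1.44 in *ZMAT3*-WT and by 3.20, 3.27 and 3.16 in *ZMAT3*-KO libraries on the log2 CPM scale. The balance between these genes had shifted by 1.84 towards *ZFP36L1*, with no overlap. The difference between *ZFP36L1* and *ZFP36L2* widened by 1.34, from 1.10 ± 0.031 to 2.44 ± 0.055 (SD, n = 3 each). That between *ZFP36L2* and *ZFP36* widened by 0.50, and that between *TIA1* and *TIAL1* moved from -2.20 ± 0.012 to -1.65 ± 0.019. *ZMAT2* over *ZMAT5* fell by 0.17. In an exact two-sided permutation test each of the 5 gave p = 0.1 (0.1 after Benjamini-Hochberg adjustment), the smallest that 3 libraries against 3 allow. Since the pairs were chosen after these values were seen, the test lends the shifts no support. Each shift is also the difference of 2 log2 fold changes given above. Among single genes, 64.2% had groups that did not overlap in this experiment.

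With sip53, *ZFP36L1* exceeded *ZFP36* by 2.58 and 2.22 with siCTRL and by 1.57 and 1.58 with sip53 on the log2(FPKM + 0.1) scale. The balance thus moved by -0.83, away from *ZFP36L1*, and the groups did not overlap. The exact permutation p was 0.333 (0.556 adjusted over 5 pairs), the smallest that 2 libraries against 2 allow. It lends no support for the same reason, and 46.4% of single genes had groups that did not overlap here. *TIA1* minus *TIAL1* changed by -0.54 and *ZFP36L2* minus *ZFP36* by -0.76, both with the same p in the exact permutation test. Without single libraries the latter ran from -1.17 (without sip53 replicate 1) to -0.36 (without sip53 replicate 2). *ZFP36L1* minus *ZFP36L2* changed by -0.07 and *ZMAT2* minus *ZMAT5* by -0.15, with overlapping groups. On the linear scale the 3 ZFP36 genes summed to 134.17 and 86.24 FPKM with siCTRL and to 76.72 and 100.69 FPKM with sip53. *ZFP36L1* made up 81.4% and 74.7% of that sum with siCTRL and 68.5% and 71.2% with sip53, so it remained the main messenger of the family in all 4 libraries.

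**Figure D4:**
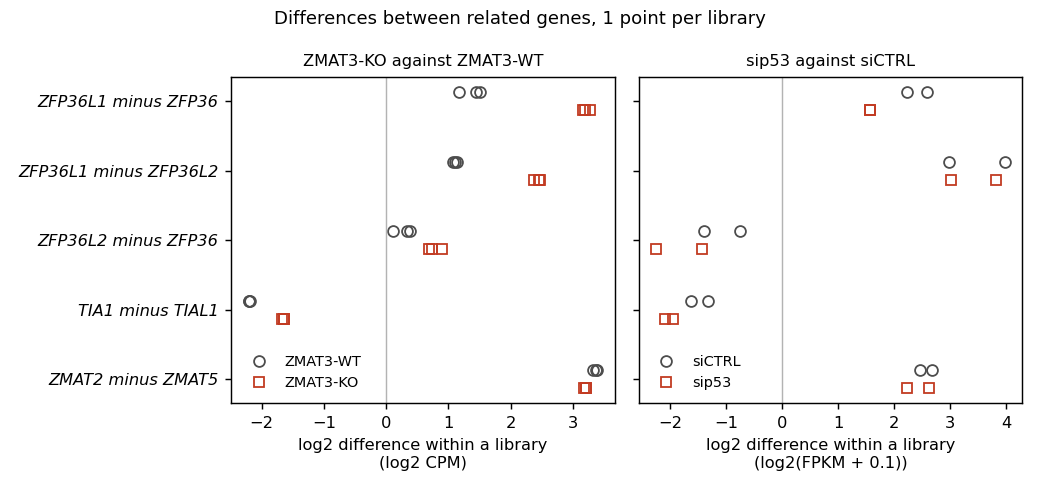
Difference between related members within each library, in log2 CPM for the *ZMAT3* experiment (left) and log2(FPKM + 0.1) for the siRNA experiment (right); circles are control libraries and squares *ZMAT3*-KO or sip53 libraries. *ZFP36L1* minus *ZFP36* is larger in the *ZMAT3*-KO libraries than in the *ZMAT3*-WT libraries by 1.84 and smaller with sip53 than with siCTRL by 0.83.

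Other genes of the same families and pathways were counted by lists. In the *ZMAT3* experiment each count stands against the 28.7% of all genes called higher and 30.1% called lower, and in the siRNA experiment against 5.86% and 9.28%. Of 5 further zinc finger genes related to the ZMAT family that had values, in *ZMAT3*-KO cells 4 were called higher and 1 lower, with a median log2 fold change of 0.31, against -0.01 over all genes. *ZNF385A*, which encodes a p53-interacting zinc finger protein, and *ZNF346*, for a protein that binds double-stranded RNA, both had a log2 fold change of 0.31, and *ZNF385B* one of 0.33 (limma adjusted p of 0.05 or less in each). The one that fell was *ZFR* (log2 fold change -0.12). With sip53, 0 of 5 were called by limma at an unadjusted p, and 1 was called lower without sip53 replicate 2.

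Of 22 other genes for AU-rich element binding proteins, 5 were higher, 6 lower and 11 not called in *ZMAT3*-KO cells. Over all genes 28.7% were higher and 30.1% lower. The median log2 fold change of the 22 was -0.01, close to that of all genes. The count called higher was 3 without *ZMAT3*-KO replicate 1 or 3 or *ZMAT3*-WT replicate 2 or 3, and the count called lower ran from 4 (without *ZMAT3*-KO replicate 3) to 9 (without *ZMAT3*-WT replicate 1). The largest increase was that of *FXR1* (0.50), a relative of the fragile X protein, followed by *RC3H2* (0.25), which encodes a Roquin protein. *ZC3H12A*, for the RNase Regnase-1, fell by 0.40 on the log2 scale, and *FUBP1*, a relative of *KHSRP*, fell by 0.27. With sip53, 0 of the 22 were called, where 5.86% of all genes were higher and 9.28% lower.

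For genes of the decay machinery that these proteins recruit, the median size of the log2 fold change in *ZMAT3*-KO cells differed by list. Whatever the direction, it was 0.10 for deadenylation, 0.10 for decapping and decay and 0.22 for exosome genes, against 0.17 for all genes. Of 20 deadenylation genes in the *ZMAT3* experiment 4 were higher and 8 lower, of 15 decapping and decay genes 2 were higher and 7 lower, and of 16 exosome genes 3 were higher and 8 lower, with medians of -0.04, -0.07 and -0.11 log2 units. Over all genes 28.7% were higher and 30.1% lower. Leaving out single libraries, the count of deadenylation genes called higher was 1 without *ZMAT3*-WT replicate 3 and 2 without *ZMAT3*-KO replicate 1 or 3 or *ZMAT3*-WT replicate 2. The count of decapping genes called higher was 1 without *ZMAT3*-KO replicate 2 or *ZMAT3*-WT replicate 1. Exactly 1 of these genes changed by 1.5-fold or more: *DIS3*, a catalytic exosome subunit, with a log2 fold change of 0.88. With 1.5-fold also required, 4.6% of all genes were called higher and 4.37% lower. *TOB1* and *BTG2*, whose proteins tether the CCR4-NOT deadenylase, fell by 0.51 and 0.36 on the log2 scale. The decapping gene *DCP1A* fell by 0.49, while *DCP2*, for the decapping enzyme itself, rose by 0.43. With sip53, *BTG2*, a known p53 target, went from 68.9 ± 9.07 FPKM to 16.3 ± 1.86 FPKM (SD, n = 2 each), a log2 fold change of -2.07 (limma adjusted p = 0.0425). The other calls in these lists with sip53, at an unadjusted p, were *TOB2* (-0.45), *DCP1A* (-0.74) and *EXOSC6* (-0.81), all lower, and *XRN1* (0.50), higher. With any 1 of the 4 siRNA libraries left out, 1 deadenylation gene was called lower and 0 decapping genes higher. The count of decapping genes called lower was 0 without siCTRL replicate 1 and 2 without siCTRL replicate 2, and that of exosome genes 0 without siCTRL replicate 2 and 2 without sip53 replicate 2.

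Transcripts known to carry AU-rich elements were listed from general knowledge, with earlier results of these data known. The counts therefore describe this list only and do not measure an effect of the element. In *ZMAT3*-KO cells 19 of the 29 with values were lower, 4 higher and 6 not called, where 30.1% of all genes were lower and 28.7% higher, and their median log2 fold change was -0.24. With 1.5-fold also required, 6 were lower and 1 higher (4.37% and 4.6% of all genes). The largest decreases were those of *FOS*, an immediate early transcription factor (log2 fold change -1.40), *LIF*, a cytokine (-0.97), and *DUSP6*, an ERK phosphatase (-0.85). The increases were led by *JUN* (0.62), *FOSL1* (0.52) and *KLF6* (0.38), which encode transcription factors. With sip53, 8 of 30 were higher, 3 lower and 19 not called at an unadjusted p (5.86% and 9.28% of all genes were higher and lower), with a median of 0.39 against -0.04 over all genes, and 0 passed an adjusted p of 0.05. *PIM1*, a kinase, rose most (1.47), then *FOS* (0.96) and *CCNB1* (0.95). Among those that fell were *TNFRSF10B* (-0.96), a known p53 target, and *CCND1* (-0.95), which encodes cyclin D1. The count called higher with sip53 was 4 without siCTRL replicate 2 and 5 without sip53 replicate 2, and the count called lower was 1 without either of these. Centring the libraries on their median gene made it 10 called higher with sip53. Grouped by sequence instead of by list, 31.3%, 33.4% and 29.5% of genes with 0, 1 and 2 or more nonamers were called lower in *ZMAT3*-KO cells.

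**Figure D5:**
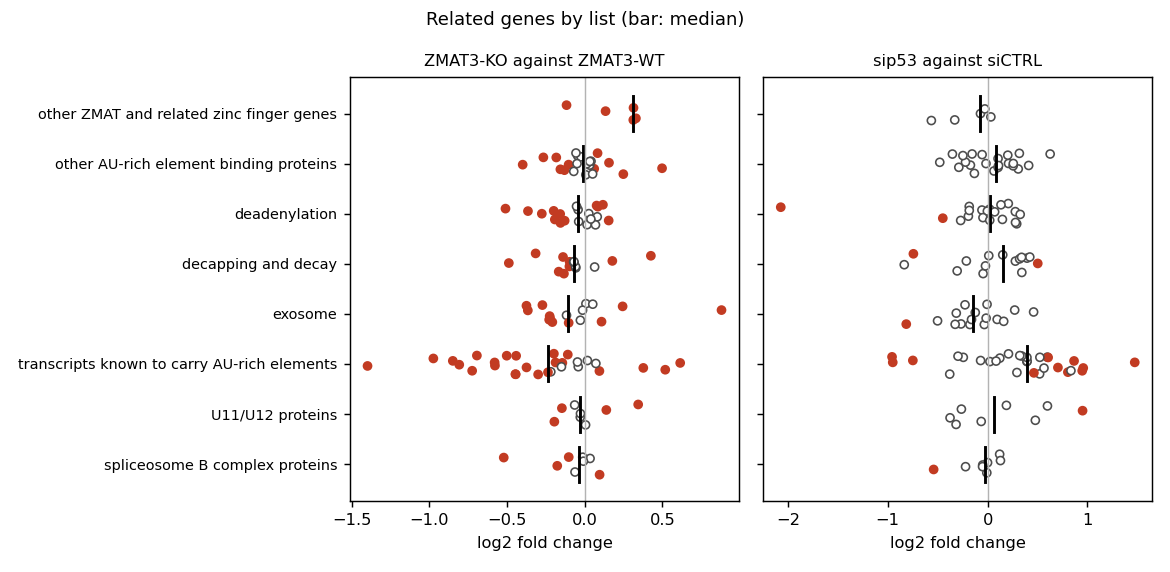
log2 fold change of each gene of 8 lists in *ZMAT3*-KO against *ZMAT3*-WT (left) and sip53 against siCTRL (right); filled points were called and bars are medians. The transcripts known to carry AU-rich elements have their median at -0.24 on the left and 0.39 on the right.

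The complexes to which the ZMAT2 and ZMAT5 proteins belong were also counted. Of 8 spliceosome B complex genes in *ZMAT3*-KO cells, 1 was higher and 3 lower, among them *WBP4* (log2 fold change -0.52). Of 8 U11/U12 genes, 2 were higher and 2 lower, with *SNRNP48* at 0.34. Both stand against 28.7% higher and 30.1% lower over all genes. The B complex gene called higher was lost without *ZMAT3*-KO replicate 1 or 3 or *ZMAT3*-WT replicate 2 or 3. For U11/U12 the count called higher was 1 without *ZMAT3*-KO replicate 1 or *ZMAT3*-WT replicate 2, and the count called lower 1 without *ZMAT3*-KO replicate 1 or 2 or *ZMAT3*-WT replicate 1 or 3. For the B complex the count called lower was 2 without *ZMAT3*-KO replicate 1 or *ZMAT3*-WT replicate 2 or 3. With sip53, where 5.86% of all genes were higher and 9.28% lower, *SNRNP48* was the only U11/U12 gene called, from 8.49 ± 0.615 FPKM to 16.5 ± 0.431 FPKM (SD, n = 2 each), or 0.95 on the log2 scale (limma unadjusted p = 0.00235, adjusted p = 0.123). *SMU1* was the only B complex gene called (-0.54), and with any 1 of the 4 siRNA libraries left out 0 were called. The U11/U12 count was 2 without sip53 replicate 1. The list medians were between -0.04 and 0.06 log2 units.

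The genes whose pattern over the 10 libraries was closest to that of *ZMAT3* were found by the Euclidean distance between their log2 values, each centred on its control mean, over 11370 genes in both tables. *CDK6*, for a cell cycle kinase, was nearest at a distance of 1.37, and its log2 fold change was -2.18 in the *ZMAT3* experiment and -2.73 in the siRNA experiment. *KRT13*, for a keratin, followed at 1.52 (log2 fold changes -2.74 and -1.40). *KLK5*, *PLA2G7* and *KRT23* followed at 2.25, 2.26 and 2.49. The likeness is one of size and direction over these libraries only.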

How the data were processed

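RNA-seq was analysed from 6 libraries of the *ZMAT3* experiment and 4 of the siRNA experiment, grouped by their labels. For the first, poly(A) RNA was sequenced, and Cutadapt (trimming), STAR (alignment, hg38) and RSEM (quantification) were run by the authors. They deposited log2 CPM, and the step from RSEM to these values is not given in the sources used here. For the second, the deposited values were read as FPKM from the values themselves: over 554 single-transcript genes, the slope of log2(value per deposited mean signal) on log2 length was -0.807. The submitters' processing notes name CASAVA 1.8.2, TopHat2 2.0.8 and FastQC 0.11.2, and the builds hg19 and hg38, without their role. The deposited tables also hold the authors' fold changes and p-values, which were not used, and a mean signal per gene over all siRNA libraries, which the authors computed and which was used only for that slope. Counts were not analysed here, so depth is unknown and count models were not run.

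The tables were fitted separately (limma 3.58.1, R 4.3.3, lmFit, eBayes with trend, two-sided, Benjamini-Hochberg), on log2 CPM without a filter or on log2(FPKM + 0.1) for the 14274 genes whose mean reached 0.5 FPKM. Calls were made at an adjusted p of 0.05 in the *ZMAT3* experiment, where the study also requires a 1.5-fold change, given here as an alternative. In the siRNA experiment they were made at an unadjusted p of 0.05, as in the study, with the adjusted p as an alternative. The spread is that between cultures of a genotype or between transfections. The fit was tested on simulated data. Members and related lists were named by a fixed rule: all 10 members, and from each list up to 3 called genes in each direction with the largest change, some of which are not reported here. The members and lists were chosen with earlier results of these data known. Motifs were searched in hg38 and in canonical 3′ UTRs of GENCODE release 44 with Python 3.11.15. Alternatives were another pseudocount, other filters on low values, a replicate block, centring on the median gene, a fit without the variance trend and leaving out each library.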

Additional observations from a re-analysis of the deposited data

How the results depend on the processing

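Of the calls on single members, that of *TIAL1* in *ZMAT3*-KO cells was lost in 6 of 11 alternative settings, and the calls of *ZMAT3*, *ZMAT2*, *ZFP36*, *ZFP36L1*, *ZFP36L2* and *TIA1* in that experiment were kept in all 11. In members never called, the sign of the log2 fold change turned. With each library left out in turn, *KHSRP* in *ZMAT3*-KO cells ran from -0.019 to 0.033, and with sip53 *ZMAT2* ran from -0.481 to 0.374, *ZMAT5* from -0.139 to 0.331 and *ELAVL1* from -0.148 to 0.026. Centring the libraries on their median gene gave 0.022 for *ZMAT2* and 0.015 for *ELAVL1* with sip53. With 1.5-fold required, 2 members were lower in *ZMAT3*-KO cells, and 599 genes were higher and 569 lower, against 3734 and 3925 without it. At an adjusted p of 0.05, 0 members, 5 higher and 34 lower genes were called with sip53, against 836 and 1325 at an unadjusted p. A minimum mean of 5 FPKM left fewer genes to test and 555 called higher, and centring gave 1120 higher and 1048 lower. With each siRNA library left out in turn, 482 to 720 genes were higher and 635 to 1171 lower, from fewer libraries.

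Same-numbered *ZMAT3* libraries correlated at -0.039, -0.022 and -0.093 in their deviations from the group means and same-numbered siRNA libraries at -0.62. With 2 libraries a group, that value and the 0.62 of the crossed libraries are bound to be opposite. These values cannot show whether same-numbered libraries were prepared together. The replicate number as a block gave 434 genes higher and 650 lower with sip53 and 3906 and 4133 in *ZMAT3*-KO cells, and changed no call on a member at the thresholds used. With it the adjusted p of *ZMAT3* with sip53 was 0.0271, and 4 of the transcripts known to carry AU-rich elements were called higher. The crossed pairing of the siRNA libraries (siCTRL replicate 1 with sip53 replicate 2), chosen after seeing the data, gave 2 members higher and 4 lower and 2410 genes higher and 3128 lower. The cause of these changes was not tested. With 2 libraries a group and an unknown depth, a change of the size seen in most members could not be separated from the spread in the siRNA experiment.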

Other observations

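Over all genes with a canonical 3′ UTR in GENCODE release 44, the nonamer TTATTTATT, which 4 of the members carry, went with the following values. In *ZMAT3*-KO against *ZMAT3*-WT cells the median log2 fold change was -0.00 for 10444 genes with 0 nonamers, -0.02 for 857 genes with 1 and 0.01 for 258 genes with 2 or more. The shares called higher were 29.7%, 26.3% and 30.2%, and the shares called lower 31.3%, 33.4% and 29.5%. With sip53 the medians were -0.05, -0.04 and -0.05 for 10831, 871 and 257 genes, with 9.81%, 8.84% and 12.8% called lower at an unadjusted limma p of 0.05. The 3′ UTRs of these classes differ in length, with medians of 1242, 2945 and 4091 bases in the *ZMAT3* experiment, and the values are given without a test.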
